A study of Homo sapiens with 16 samples.

Results

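The keratin genes KRT5, KRT6A, KRT7, KRT8, KRT14, KRT16, KRT17, KRT18, KRT19 and KRT80, were followed in lung cancer cells exposed to hepatocyte growth factor (HGF), the ligand of the MET receptor. They were chosen by gene symbol in the deposited count table as the keratins of simple and of squamous epithelia, and all 10 of them were found among its 42351 genes. RNA was sequenced from A549, by its labels a line with wt MET and known as a lung adenocarcinoma line, and from NCI-H596, an adenosquamous lung line expressing MET∆14, after 0, 3, 6 and 12 h of HGF. In MET∆14 exon 14 is skipped, and by the study's text NCI-H596 expresses this allele alone. Each of the 8 conditions had 2 biological replicates, which gives 16 libraries. All cells had been deprived of serum before HGF, for 12 h by the labels and for longer by the study's methods. Each MET status was represented by 1 line, so line and MET status cannot be told apart, and 0 h was the only time without HGF, so the effect of HGF and that of time in culture cannot be told apart. The study's text does not name A549 and uses EKVX as its wt MET line. The wt MET libraries held 0 counts of CDKN2A and at most 23 counts of the neighbouring MTAP, a pair of genes known to be deleted in A549. MET itself was at 1206 to 1539 CPM (counts relative to the library total after TMM scaling) in A549 and at 369.5 to 443 CPM in NCI-H596.

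Keratins build the intermediate filaments of epithelial cells, which give the cells mechanical strength. Each filament is made of obligate pairs of a type I (acidic) and a type II (basic) keratin, so the summed supply of both types matters to the cell. KRT8 and KRT18 are the pair found in all simple, that is single-layered, epithelia, and KRT7 and KRT19 join them in ducts, airways and glands. KRT5 and KRT14 are the pair of basal cells of stratified and airway epithelia. KRT6A, KRT16 and KRT17 are keratins of skin appendages that are induced in wounded or inflamed epidermis, and KRT80 is a type II keratin linked to cell-cell junctions. KRT5, KRT6A, KRT7, KRT8 and KRT80 are of type II, and KRT14, KRT16, KRT17, KRT18 and KRT19 of type I.

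In hg38 with GENCODE annotation, the type II genes lay together on chromosome 12, KRT80 at chr12:52168996-52192014, KRT7 at chr12:52232520-52252186, KRT6A at chr12:52487176-52493257, KRT5 at chr12:52514575-52520530 and KRT8 at chr12:52897187-52949954. KRT18, the only type I gene outside the type I cluster, overlapped the end of KRT8 on the opposite strand, at chr12:52948871-52952906. The other type I genes lay on chromosome 17, KRT19 at chr17:41523617-41528308, KRT14 at chr17:41582279-41586895, KRT16 at chr17:41609778-41615899 and KRT17 at chr17:41619442-41624842. KRT8 and KRT18 shared 525 bp of exon, which is 7.63% of the exon length of KRT8 and 17.1% of that of KRT18. Whether the counting used strand is not given in the sources used here, so reads of the shared stretch cannot be assigned with certainty. RefSeq promoter sequences (GRCh38.p14) were given here for 2 of the 10 genes, KRT5 and KRT8, and not for KRT6A, KRT7, KRT14, KRT16, KRT17, KRT18, KRT19 and KRT80. The 250 bases before the RefSeq start of KRT5, the gene whose level differed most between the lines, are shown as the sequence upstream of that start (chr12:52520395-52520644, minus strand). This start lies inside the GENCODE span given above, so part of the window overlaps that span.
KRT5 promoter: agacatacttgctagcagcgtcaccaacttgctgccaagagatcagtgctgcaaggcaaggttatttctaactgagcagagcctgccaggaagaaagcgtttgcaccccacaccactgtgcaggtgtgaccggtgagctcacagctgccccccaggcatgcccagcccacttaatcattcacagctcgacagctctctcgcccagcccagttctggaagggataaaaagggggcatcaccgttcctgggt
No letters are in capitals because none of the 5 motifs searched on both strands was in the window. These were TGANTCA (an AP-1 site), GGGCGG (SP1), GCCNNNGGC (AP-2), AACCGGTT (grainyhead factors) and TATAAA, which were in 6.57%, 42.6%, 19.8%, 0.117% and 10.7% of the 35116 promoter windows of that length.

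Before HGF, the lines expressed different sets of these keratins. The squamous and basal keratins KRT5, KRT14, KRT6A and KRT16 were expressed in NCI-H596, KRT5 far above the others, and at or near 0 in A549. KRT7, KRT18 and KRT80 were higher in A549. KRT5 had 2183 and 2101 CPM in the 0 h libraries of NCI-H596 and 1 count in each 0 h library of A549, a ratio of 29870 with a 95% counting interval from 8270 to 246700. KRT14 had 42.4 and 42.3 CPM in NCI-H596 and 0 counts in all 8 libraries of A549, and was therefore at least 197.2-fold higher at 0 h, taking 3 counts per library as the floor. Counting intervals and floors cover counting error only. KRT5, KRT14, KRT6A and KRT16 passed the filter on low counts through NCI-H596 alone, so their difference between the lines is a description. In bulk RNA, fewer cells with a transcript and less of it per cell cannot be told apart.

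KRT6A had 196 and 218 CPM at 0 h in NCI-H596 against 4 and 2 counts in A549, a ratio of 971.7 (446.4 to 2648). KRT16, a type I keratin that pairs with KRT6A, had 105 and 102.7 CPM against 1 and 5 counts, a ratio of 483.4 (222.1 to 1317). KRT17 was low in both lines at 0 h, at 7.17 and 8.84 CPM in NCI-H596 and at 1.16 and 0.848 CPM in A549. Of the keratins of simple epithelia, KRT19 was 36.2-fold higher in NCI-H596, with 1754 and 1687 CPM against 53.1 and 41.7. The reverse held for KRT7 with 2149 and 1950 CPM in A549 against 242 and 248.4 in NCI-H596, for KRT18 with 1460 and 1425 against 358.2 and 361.7, and for KRT80 with 609.4 and 560.2 against 54.5 and 57.0. KRT8 was the member closest to equal, at 991 and 796.4 CPM in A549 and 629.5 and 625.3 CPM in NCI-H596. By edgeR's quasi-likelihood test, adjusted over all genes by Benjamini-Hochberg, all 10 members passed the threshold between the lines at 0 h, but nothing is read from this for the 4 that entered the test through NCI-H596 alone. Of the other 6, KRT19 and KRT17 were higher and KRT7, KRT8, KRT18 and KRT80 lower in NCI-H596, beside 80.2% of the 15067 genes tested (40.6% higher and 39.6% lower). The call for KRT8 was lost without A549 0 h replicate 1, where its log2 difference was -0.35 in place of -0.51 (adjusted p = 0.0747 in place of 0.00481).

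**Figure D1:**
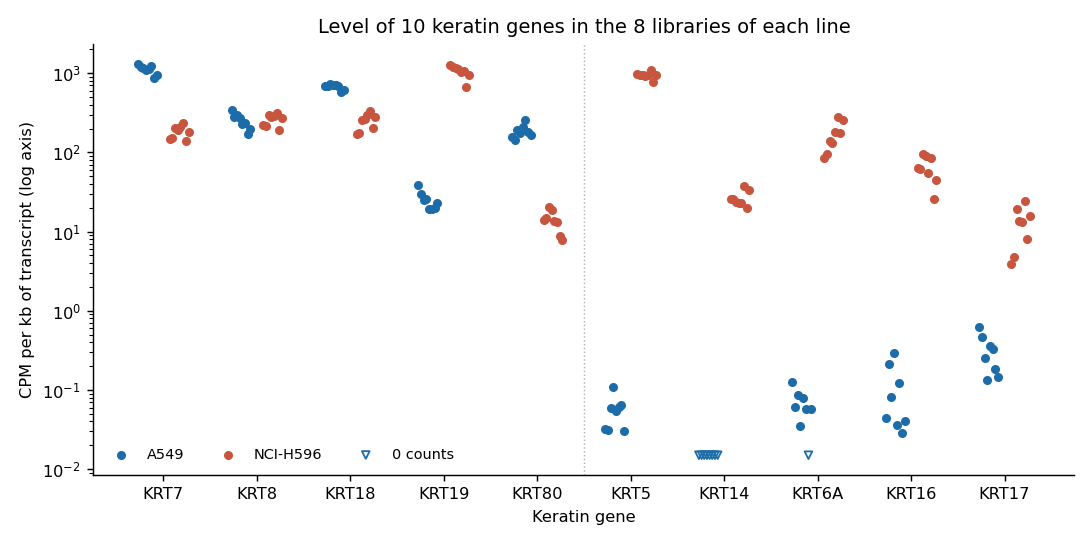
Level of each keratin in CPM per kb of its longest transcript (log axis) in the 8 libraries of each line, one point per library, with open triangles for libraries at 0 counts. KRT14 was at 0 counts in every A549 library, KRT8 overlapped between the lines, and KRT5 stood between 778.7 and 1100 in NCI-H596.

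Levels of different genes were compared per kb of the longest annotated transcript, as the median over the 8 libraries of a line. In A549 the order was KRT7 (1159 CPM per kb), KRT18 (699), KRT8 (255), KRT80 (179), KRT19 (24.2) and KRT17 (0.293), with KRT5, KRT6A, KRT14 and KRT16 at medians of at most 0.0621. The ranges of KRT8 (172 to 346.2) and KRT80 (144 to 255.6) overlapped, and no other neighbours among the first 6 did. In NCI-H596 the order was KRT19 (1085), KRT5 (948), KRT8 (277), KRT18 (262), KRT7 (185), KRT6A (158), KRT16 (62.6), KRT14 (24.8), KRT80 (13.9) and KRT17 (13.4). There, the ranges of all neighbours in this order overlapped except those of KRT5 and KRT8. Values per kb depend on the length used, and the longest KRT8 transcript has 2862 bases where the canonical transcript has 1784. With canonical lengths the A549 medians were 1159 for KRT7, 1033 for KRT18 and 409.2 for KRT8, and KRT8 and KRT18 of NCI-H596 were at 444 and 386.8.

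The 10 members held 0.369% to 0.531% of all counts in A549 libraries and 0.466% to 0.668% in NCI-H596 libraries. Of the CPM per kb of all keratins, they made up 95.7% to 98.1% in NCI-H596 but only 56.4% to 60.3% in A549. Nearly all of the rest in A549 was KRT81, a type II keratin of hair, noticed after its values were seen, with 1310 to 1778 CPM per kb in A549 and at most 14 counts in any NCI-H596 library. At 0 h, KRT81 was 39.6% ± 0.483 of the keratin sum in A549 (SD, n = 2), KRT7 29.7% ± 0.0267, KRT18 16.3% ± 0.828 and KRT8 7.33% ± 0.632. In NCI-H596 at 0 h, KRT19 was 40.5% ± 0.287 and KRT5 31.3% ± 0.203, followed by KRT8 at 7.17% ± 0.114 and KRT18 at 5.64% ± 0.154. Deposited rows of keratin pseudogenes, near-identical copies that can take reads from their parents, held 4.24% as many counts as KRT8 itself in A549 and 3.78% in NCI-H596, and at most 1.15% of the count of any other member in NCI-H596. For KRT17 in A549 they held 30 counts against 69 on KRT17, so its level there is uncertain.

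**Figure D2:**
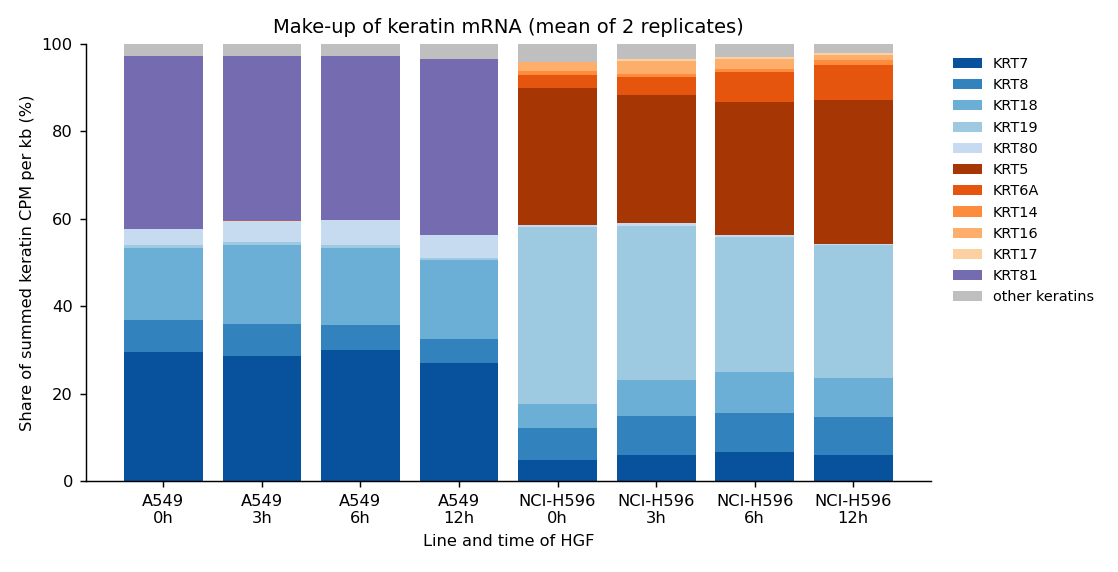
Share of each keratin in the summed CPM per kb of all keratins (percent, bars from 0 to 100), as the mean of 2 replicates in each line and at each time of HGF. KRT81 and KRT7 made up most of the A549 bars, and KRT19 and KRT5 most of the NCI-H596 bars, where KRT19 stood at 40.5% at 0 h and 30.3% at 12 h.

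In NCI-H596, HGF was followed by higher levels of the induced keratins KRT6A and KRT17 and of the simple keratins KRT18, KRT7 and KRT8, while KRT19, KRT80 and KRT16 were lower at 12 h. In the F test over the 3 times against 0 h, 8 of the 10 members were called, 5 whose largest change was a rise and 3 whose largest change was a fall. The background was 54.1% of all genes tested (25.6% higher and 28.5% lower), so 8 of 10 members is a larger share, but it was not tested as a share. At single times, 5 members rose and 0 fell at 3 h (background 31.7%, with 15.5% higher and 16.1% lower), 5 rose and 0 fell at 6 h (44.1%, with 21.6% and 22.5%), and 3 rose and 3 fell at 12 h (38.3%, with 18.3% and 20.1%). The count at 3 h was 2 without NCI-H596 0 h replicate 1 or 3 h replicate 1, and 3 without 0 h replicate 2 or 3 h replicate 2. The basal pair KRT5 and KRT14 was not called at any time.

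KRT17, an induced type I keratin, had the largest rise of the 10. It stood at 7.17 and 8.84 CPM at 0 h, at 35.4 and 24.7 at 3 h, at 24.6 and 45.2 at 6 h and at 14.7 and 28.6 at 12 h. All 6 libraries with HGF lay above both libraries without it, and the replicates of each later time stood apart. Its log2 fold change was 1.89 ± 0.322 (SE) at 3 h (adjusted p = 0.00057), 2.13 ± 0.318 at 6 h (adjusted p = 0.000127) and 1.39 ± 0.328 at 12 h (adjusted p = 0.00463). The call at 12 h was lost without NCI-H596 12 h replicate 2, where the value was 0.85 (adjusted p = 0.081).

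KRT6A had 196 and 218 CPM at 0 h, 319.4 and 301.7 at 3 h, 417.2 and 639.5 at 6 h, and 410.3 and 597.5 at 12 h. The groups at 3, 6 and 12 h lay wholly above 0 h, and replicate 2 was the higher at 6 and 12 h. It rose by 1.35 ± 0.190 at 6 h on the log2 scale (adjusted p = 6.64e-05) and by 1.28 ± 0.190 at 12 h (adjusted p = 0.000153). At 3 h the value was 0.58 ± 0.188 (adjusted p = 0.0298), a call that was lost without any of the 4 NCI-H596 libraries of 0 and 3 h (adjusted p = 0.0749 to 0.169), in DESeq2 (adjusted p = 0.114) and with each line fitted alone (adjusted p = 0.0701). KRT6B and KRT6C, near-identical neighbours of KRT6A that can share its reads, were also called as higher, with means of 3.41 CPM at 0 h and 18.1 CPM at 12 h for KRT6B and of 0.945 and 3.10 CPM for KRT6C. At these levels they held few reads beside those of KRT6A.

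KRT16, the usual type I partner of KRT6A, took another course. It had 105 and 102.7 CPM at 0 h, 156.7 and 149 at 3 h, 91.7 and 141.7 at 6 h, and 42.2 and 73.9 at 12 h. The libraries at 3 h lay above those at 0 h and the libraries at 12 h below them, with 6 h on either side. It was lower at 12 h, with a log2 fold change of -0.86 ± 0.230 (adjusted p = 0.0103), and its value at 3 h, 0.56 ± 0.223, did not pass (adjusted p = 0.0744). Without NCI-H596 12 h replicate 1 the value at 12 h was -0.49 (adjusted p = 0.119), and the largest change was then the one at 3 h, 0.56, with the F test still passed (adjusted p = 0.012). The ratio of KRT6A to KRT16 in CPM per kb was 1.34 and 1.52 in the replicates at 0 h, 1.46 and 1.45 at 3 h, 3.27 and 3.24 at 6 h, and 6.98 and 5.81 at 12 h. This ratio differed little between replicates even where both genes did, and it was higher at 6 and 12 h than in any library of 0 or 3 h.

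**Figure D3:**
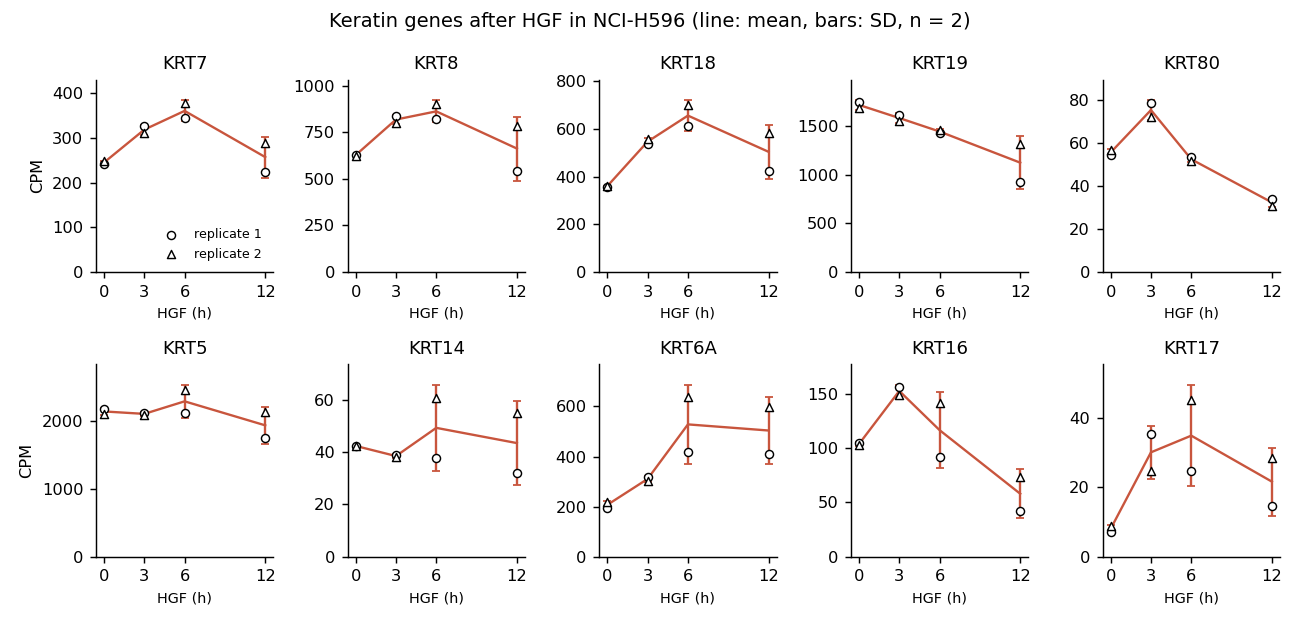
CPM of the 10 keratins in NCI-H596 against hours of HGF, with a symbol for each replicate, the line through the means and bars for the SD (n = 2). KRT17 and KRT6A stood above their 0 h level in every library with HGF, KRT5 and KRT14 showed no called change, and the 12 h replicates of most genes lay apart.

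The simple pair KRT18 and KRT8 also had higher levels after HGF in NCI-H596, KRT18 at every time. KRT18 had 358.2 and 361.7 CPM at 0 h, 536.7 and 556.5 at 3 h, 610.5 and 701 at 6 h, and 424.3 and 583.5 at 12 h, with no overlap between 0 h and any later time. Its log2 fold change was 0.60 ± 0.121 at 3 h (adjusted p = 0.00136), 0.87 ± 0.121 at 6 h (adjusted p = 4.03e-05) and 0.48 ± 0.121 at 12 h (adjusted p = 0.00538). These 3 calls were kept whichever of the 16 libraries was left out. KRT8 had 629.5 and 625.3 CPM at 0 h, 837 and 799.9 at 3 h, 820.6 and 904.3 at 6 h, and 541.2 and 784.3 at 12 h, so the 12 h replicates lay on either side of 0 h. KRT8 rose at 6 h, by 0.46 ± 0.146 (adjusted p = 0.0188), whereas its value at 3 h, 0.38 ± 0.146, did not pass (adjusted p = 0.0581). The F test for KRT8 (adjusted p = 0.033) no longer passed in 10 of the 16 fits with a library left out (adjusted p = 0.0528 to 0.116), and its call at 6 h was lost without NCI-H596 0 h replicate 1, 0 h replicate 2 or 6 h replicate 2 (adjusted p = 0.0903 to 0.137). Both calls were also lost with total counts as library sizes, where the value at 6 h was 0.32, and the F test did not pass with NCI-H596 fitted alone (adjusted p = 0.0938).

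KRT7, a type II keratin of ducts and glands, rose at 3 and 6 h and was back near its starting level at 12 h. It had 242 and 248.4 CPM at 0 h, 326.9 and 311 at 3 h, 344.3 and 377.7 at 6 h, and 224.9 and 290 at 12 h. The log2 fold change was 0.38 ± 0.114 at 3 h (adjusted p = 0.0191), 0.56 ± 0.114 at 6 h (adjusted p = 0.00101) and 0.07 ± 0.114 at 12 h (adjusted p = 0.678). The call at 3 h was lost without any of the 4 NCI-H596 libraries of 0 and 3 h (adjusted p = 0.0602 to 0.119), and the value at 12 h was 0.24 without replicate 1 of that time and -0.14 without replicate 2. KRT80 had 54.5 and 57.0 CPM at 0 h, 78.7 and 72.3 at 3 h, 53.4 and 51.7 at 6 h, and 34.1 and 30.9 at 12 h. Both libraries of 3 h lay above those of 0 h, and those of 6 and 12 h lay below. KRT80 rose at 3 h by 0.44 ± 0.107 (adjusted p = 0.00571) and was lower at 12 h, with a log2 fold change of -0.78 ± 0.112 (adjusted p = 7.82e-05). The rise at 3 h was lost without NCI-H596 0 h replicate 1 or 3 h replicate 1 (adjusted p = 0.0533 and 0.059).

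KRT19, the most abundant keratin of NCI-H596 per kb at 0 and 3 h, was lower at the end of the course, when the per-kb ratio of KRT5 to KRT19 was 1.163 and 1.002 in the libraries. It had 1754 and 1687 CPM at 0 h, 1619 and 1552 at 3 h, 1428 and 1465 at 6 h, and 931 and 1321 at 12 h, each time wholly below 0 h. The change passed at 12 h (log2 fold change -0.61 ± 0.137, adjusted p = 0.00261) and not at 6 h (-0.25 ± 0.137, adjusted p = 0.155). Its F test (adjusted p = 0.00886) did not pass with NCI-H596 fitted alone (adjusted p = 0.0701). KRT5 had 2183 and 2101 CPM at 0 h, 2124 and 2088 at 3 h, 2121 and 2461 at 6 h, and 1743 and 2131 at 12 h, which overlapped 0 h at each time. Its log2 fold changes were -0.02, 0.10 and -0.15, each with an SE of 0.105, and its F test gave an adjusted p of 0.254. Without NCI-H596 12 h replicate 2 it was called at 12 h with a value of -0.31 (adjusted p = 0.0041). KRT14 had 42.4 and 42.3 CPM at 0 h, 38.9 and 38.0 at 3 h, 37.6 and 60.8 at 6 h, and 32.0 and 54.8 at 12 h, and its log2 fold changes lay between -0.14 and 0.23 with SEs of 0.259 to 0.264. SEs of this size leave room for a change as large as the one called for KRT8 at 6 h. The ratio of KRT5 to KRT14 per kb was between 28.4 and 41.2 in all 8 libraries of NCI-H596.

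The 12 h replicates of NCI-H596 differed in the same direction for 9 of these genes, with replicate 1 below replicate 2 for all but KRT80. The same held for the same genes at 6 h. At 12 h replicate 1 had 0.466% and replicate 2 had 0.626% of its counts on the 10 members, and at 6 h 0.6067% and 0.6685%. The part of RNA quality, cell density or another feature of these libraries in these gaps was not tested.

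In A549, KRT8, KRT7 and KRT19 were lower after HGF and KRT80 was higher. In the F test over the 3 times, 4 of the 10 members were called, KRT80 as higher and KRT7, KRT8 and KRT19 as lower, against 40.3% of all genes tested (19.4% higher and 21.0% lower). At single times the counts were 0 of 10 at 3 h (background 17.4%; 2 members, KRT80 and KRT19, had an unadjusted p under 0.05 and both were called by DESeq2), 1 higher and 2 lower at 6 h (34.2%, with 16.4% higher and 17.8% lower), and 0 higher and 3 lower at 12 h (35.1%, with 16.9% and 18.2%). The count at 12 h was 1 without A549 12 h replicate 1 and 5 without either 12 h library of NCI-H596, and the count at 3 h was 1 or 2 without A549 0 h replicate 2, either 6 h library of A549 or either 12 h library of NCI-H596. KRT5, KRT6A, KRT14 and KRT16 had at most 6 counts in any A549 library, and no change of them was detectable at this depth. KRT17 had 3 to 16 counts, with 1.16 and 0.848 CPM at 0 h and 0.242 to 0.666 CPM in the libraries with HGF, and did not pass at any time (log2 fold change -1.68 ± 0.912 at 12 h, adjusted p = 0.175), though DESeq2 called it at 12 h (-1.70).

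KRT8 had 991 and 796.4 CPM at 0 h, 844.6 and 783.9 at 3 h, 647.9 and 675.9 at 6 h, and 492.6 and 572.9 at 12 h. The libraries of 6 and 12 h lay below both libraries of 0 h. Its log2 fold change was -0.43 ± 0.146 at 6 h (adjusted p = 0.0326) and -0.75 ± 0.147 at 12 h (adjusted p = 0.0012). The call at 6 h was lost in 13 of the 16 fits with a library left out, most of all without A549 0 h replicate 1 (-0.27, adjusted p = 0.286), and the call at 12 h was lost in none. KRT18, its partner, had 1460 and 1425 CPM at 0 h and 1213 and 1275 at 12 h, with values of 1459 to 1523 at 3 and 6 h. It was not called (log2 fold change -0.21 ± 0.120 at 12 h, adjusted p = 0.186), although it was called when either 12 h library of NCI-H596 was left out (adjusted p = 0.0113 and 0.00865) or when A549 was fitted alone (adjusted p = 0.0191). The ratio of KRT8 to KRT18 per kb was 0.495 and 0.408 at 0 h and 0.296 and 0.328 at 12 h in A549, and 1.28 and 1.26 at 0 h and 0.931 and 0.981 at 12 h in NCI-H596. In both lines the ratio at 12 h was below that in either library of 0 h, while KRT8 was lower in A549 and KRT18 higher in NCI-H596.

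KRT19 was low in A549 and lower after HGF, with 53.1 and 41.7 CPM at 0 h, 35.2 and 35.5 at 3 h, 26.7 and 27.2 at 6 h, and 27.8 and 32.2 at 12 h. Every library with HGF lay below both without it. Its log2 fold change was -0.82 ± 0.155 at 6 h (adjusted p = 0.000927) and -0.66 ± 0.153 at 12 h (adjusted p = 0.00363). The call at 12 h was lost without A549 0 h replicate 1 or 12 h replicate 1 (adjusted p = 0.0605 and 0.056). KRT7 had 2149 and 1950 CPM at 0 h, 1905 and 1786 at 3 h, 1861 and 2011 at 6 h, and 1418 and 1520 at 12 h, and was lower at 12 h (log2 fold change -0.48 ± 0.112, adjusted p = 0.00405). Its F test (adjusted p = 0.0146) was lost without A549 12 h replicate 1 (adjusted p = 0.146) or replicate 2 (adjusted p = 0.0608), and its call at 12 h without replicate 1 (adjusted p = 0.0518).

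KRT80 was the only member called as higher in A549. It had 609.4 and 560.2 CPM at 0 h, 739.1 and 686.3 at 3 h, 821 and 995.4 at 6 h, and 710.9 and 643.1 at 12 h. All 6 libraries with HGF lay above both libraries without it. It rose at 6 h by 0.64 ± 0.101 on the log2 scale (adjusted p = 0.000219), a call kept in all 16 fits with a library left out, and did not pass at 3 h (0.29 ± 0.101, adjusted p = 0.0648) or 12 h (0.21 ± 0.101, adjusted p = 0.119).

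**Figure D4:**
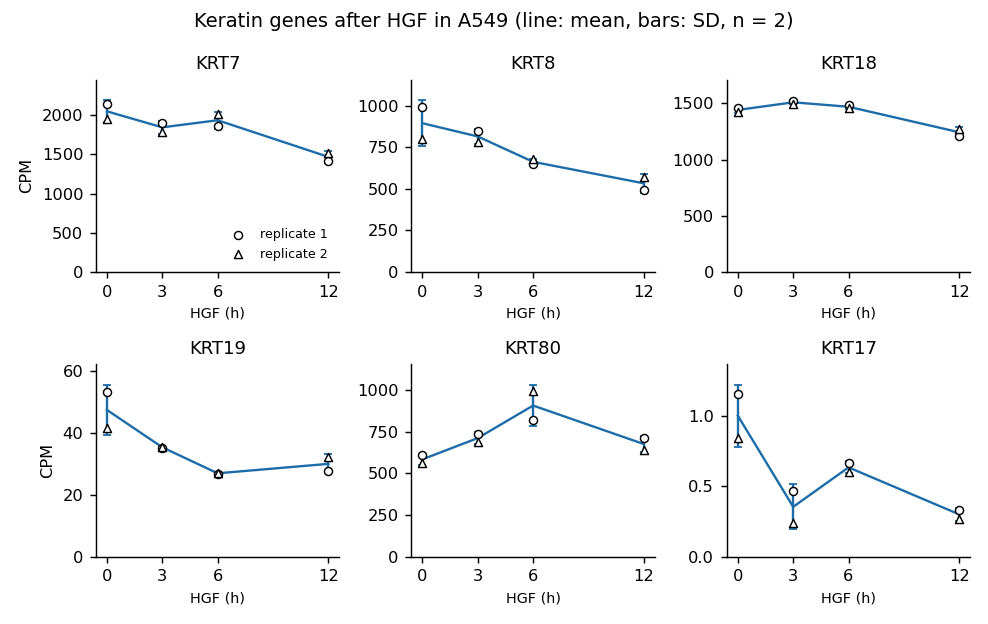
CPM of the 6 keratins with more than 6 counts in some A549 library, against hours of HGF, with a symbol for each replicate, the line through the means and bars for the SD (n = 2). KRT8 and KRT19 lay lower after 6 and 12 h, KRT80 was highest at 6 h (821 and 995.4), and KRT17 had at most 16 counts in any library.

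Whether the responses differed between the lines was tested directly, by an F test over the 3 differences of the log2 fold changes (NCI-H596 minus A549). It called 5 of the 10 members, KRT7, KRT8, KRT17 and KRT18 with a higher and KRT80 with a lower response in NCI-H596, against 37.6% of all genes tested (20.3% higher and 17.3% lower). KRT18 had differences of 0.54 ± 0.170 at 3 h, 0.84 ± 0.170 at 6 h and 0.70 ± 0.170 at 12 h (F test, adjusted p = 0.00545), and KRT80 had 0.15 ± 0.147, -0.72 ± 0.147 and -0.99 ± 0.150 (adjusted p = 6.37e-05). Both calls were kept whichever library was left out.

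KRT8 differed by 0.52 ± 0.206, 0.89 ± 0.207 and 0.82 ± 0.207 (adjusted p = 0.0104) and KRT7 by 0.53 ± 0.160, 0.64 ± 0.160 and 0.55 ± 0.160 (adjusted p = 0.0171). Their log2 fold changes were above 0 at all 3 times in NCI-H596 and below 0 at all 3 in A549, though not all of these passed. Both calls were lost without A549 0 h replicate 1, NCI-H596 0 h replicate 1 or NCI-H596 0 h replicate 2 (adjusted p = 0.0504 to 0.0554 for KRT8 and 0.0764 to 0.109 for KRT7). The count of members whose response differed was then 2 in place of 5. The difference for KRT17, 3.33 ± 0.980 at 3 h, rested on the 3 to 16 counts of A549 (adjusted p = 0.046), was lost in 12 of 16 fits with a library left out (adjusted p = 0.0528 to 0.286) and is read as uncertain. KRT19 was lower in both lines, and the test of its difference did not pass (0.31 ± 0.205, 0.56 ± 0.206 and 0.05 ± 0.204, adjusted p = 0.117), though it passed without either 12 h library of NCI-H596 (adjusted p = 0.00623 and 0.000305). For KRT5, KRT6A, KRT14 and KRT16 the A549 levels were too low for a difference of responses to be estimated.

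**Figure D5:**
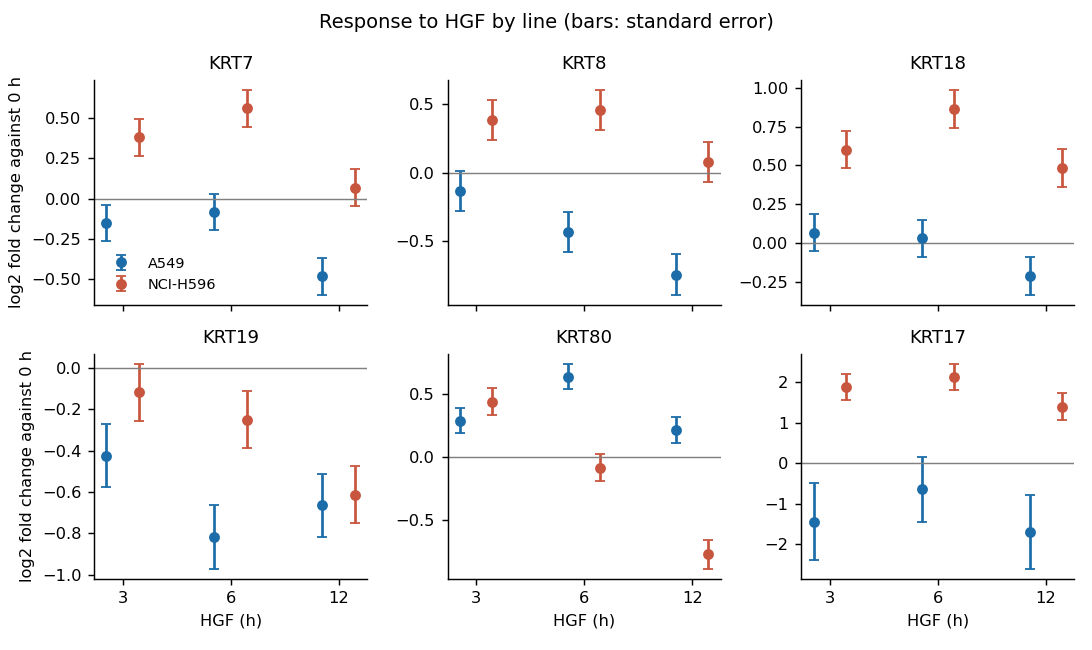
Log2 fold change against 0 h at 3, 6 and 12 h of HGF, for the 6 keratins with a mean above 3 counts in both lines. Bars give the standard error of the fit over all 16 libraries. KRT17 had only 3 to 16 counts in A549, so its values there are uncertain. KRT18 lay between 0.48 and 0.87 in NCI-H596 and between -0.21 and 0.07 in A549, KRT8 lay on opposite sides of 0 in the lines, and KRT80 was at 0.21 in A549 and -0.78 in NCI-H596 at 12 h.

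With line and time as additive terms, the formula named in the study, the time effect shared by the lines was called for 3 members, KRT6A as higher (adjusted p = 0.00358) and KRT16 (adjusted p = 0.00327) and KRT19 (adjusted p = 0.00646) as lower, against 30.6% of all genes tested (13.5% higher and 17.2% lower). KRT6A and KRT16 had almost no counts in A549, so their shared effect is that of NCI-H596. KRT19 alone of the 3 was also called in each line over all 16 libraries, a call that NCI-H596 lost when fitted alone. The count was 5 without either 0 h library of A549 and 6 without NCI-H596 12 h replicate 2.

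The make-up of keratin mRNA in NCI-H596 at 12 h was compared with that at 0 h. KRT19 had 40.5% ± 0.287 of the keratin CPM per kb at 0 h and 30.3% ± 1.09 at 12 h (SD, n = 2), KRT6A 2.94% ± 0.280 and 8.16% ± 0.443, and KRT18 5.64% ± 0.154 and 9.06% ± 0.126. KRT5 had 31.3% ± 0.203 and 32.8% ± 2.26. The summed type II members were 0.945 and 0.959 times the summed type I members at 0 h, 1.03 in both libraries at 3 h, 1.16 and 1.26 at 6 h and 1.40 and 1.26 at 12 h. In A549 the same ratio was 2.47 and 2.27 at 0 h, 2.20 and 2.09 at 3 h, 2.17 and 2.41 at 6 h, and 2.04 and 2.05 at 12 h. These sums leave out KRT81, a large part of the type II keratin of A549. With all keratins summed, the A549 ratio was 4.59 and 4.14 at 0 h and 3.85 and 3.84 at 12 h. In NCI-H596 it was then 0.874 and 0.895 at 0 h and 1.36 and 1.24 at 12 h. The level of the ratio of the members depends on the transcript length used. In NCI-H596 that ratio was higher at 12 h than at 0 h with longest, mean and canonical lengths.

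The other genes of the keratin system were counted from lists, beside 54.1% of all genes called in NCI-H596 and 40.3% in A549. The rule for naming their largest rise and fall took the mean over the 3 times among called genes whose log2 CPM averaged 3 or more. Of 14 other keratins tested, 8 were called in NCI-H596 (5 higher, 3 lower), a share near that of all genes, and 1 in A549 (lower). The calls in NCI-H596 include KRT81, as higher, on 1 to 14 counts per library and KRT4, as lower, on 7 to 56. KRT6B and KRT6C, which can share reads with KRT6A, are among those called as higher. In A549 only 8 of the 14 had a mean above the floor of 3 counts, so the count there is not set against all genes. In NCI-H596 the largest rise by the naming rule was that of KRT75, a type II keratin of the hair follicle companion layer, at 3.91 and 3.18 CPM at 0 h and 23.7 and 29.1 at 6 h (log2 fold change 2.91 ± 0.264, adjusted p = 1.09e-06). The largest fall was that of KRT15, a type I keratin of basal cells, at 98.2 and 83.9 CPM at 0 h and 20.1 and 12.6 at 12 h (-2.45 ± 0.191, adjusted p = 4.17e-07). KRT13, a type I keratin of non-keratinised stratified epithelium, noticed after its values were seen, had 166.7 and 145.4 CPM at 0 h and 34.5 and 43.3 at 12 h. The call in A549 was KRT86, a hair keratin (-0.43 ± 0.0925 at 12 h, adjusted p = 0.00223). The median mean log2 fold change of the other keratins above the floor was 0.36 in NCI-H596, beside -0.06 for all genes above the floor, and -0.24 beside -0.05 in A549.

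Of 22 tested genes of the cornified envelope, the crosslinked shell of squamous cells, 12 were called in NCI-H596 (10 higher, 2 lower, beside 25.6% higher and 28.5% lower of all genes) and 4 in A549 (2 higher, 2 lower). The total in NCI-H596 was near the 54.1% of all genes. TGM3 and SPRR2E, counted there as higher, had 3 to 56 and 3 to 30 counts per library, with means of 0.272 and 0.172 CPM at 0 h. They passed the filter on low counts only through libraries with HGF, so nothing is read from their direction. In A549 only 10 of the 22 had a mean above the floor of 3 counts, so the total there is not set against the 40.3%. Genes called as higher in NCI-H596 included IVL (involucrin, a mean of 1.66 CPM at 0 h and 5.89 at 6 h), SPRR2A (1.58 and 8.96) and SFN (stratifin, 706.4 and 1330), the largest rise by the rule. At 12 h their means were 3.06, 5.65 and 830.6 CPM. TGM1, the transglutaminase that crosslinks the envelope, was called as lower by its value at 12 h. Its means were 27.9 CPM at 0 h, 41.0 at 3 h and 7.39 at 12 h. KLK5, a protease of the skin surface, fell most by the rule (-1.13 ± 0.249 at 12 h, adjusted p = 0.00309). In A549, SFN rose at 3 h (0.73 ± 0.155, adjusted p = 0.00421) and ANXA1 was lower at 6 h (-0.49 ± 0.0826, adjusted p = 0.000332). IVL, SPRR2A and TGM1 were chosen after their values were seen.

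Of 23 tested genes that anchor or link keratin filaments, 18 were called in NCI-H596 (10 higher, 8 lower) and 12 in A549 (5 higher, 7 lower), beside 54.1% and 40.3% of all genes. By the rule, PPL (periplakin, which links keratins to desmosomes) fell most in NCI-H596, with 509.9 CPM at 0 h and 124.9 at 12 h, a log2 fold change of -2.02 ± 0.158 (adjusted p = 4.87e-07). EPPK1 (epiplakin, a keratin-binding plakin) rose most, with 30.5 CPM at 0 h and 121 at 3 h (1.98 ± 0.155, adjusted p = 2.6e-07), and was at 29.2 CPM at 12 h. PLEC, the linker of keratins to hemidesmosomes, was called as higher in both lines and rose most by the rule in A549 (0.52 ± 0.173 at 6 h, adjusted p = 0.0299), where EVPL (envoplakin) fell most (-0.95 ± 0.173 at 6 h, adjusted p = 0.000638). Of 11 other intermediate filament genes tested, 5 were called in NCI-H596 (2 higher, 3 lower) and 6 in A549 (2 higher, 4 lower), beside the same shares. VIM, the filament protein of mesenchymal cells, was higher at 12 h in both lines, by 0.68 ± 0.0902 in NCI-H596 (adjusted p = 3.89e-05) and 0.29 ± 0.0899 in A549 (adjusted p = 0.0227), and LMNB1, a nuclear lamin, was the largest fall by the rule in each, though the less abundant SYNC fell more in NCI-H596 (mean log2 fold change -1.25 against -0.51).

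Of 20 tested transcription factors known to act on keratin genes, 19 were called in NCI-H596 (3 higher, 16 lower) and 12 in A549 (11 higher, 1 lower). The same backgrounds were 54.1% (25.6% higher and 28.5% lower) and 40.3% (19.4% and 21.0%). Direction is that of the largest change alone. JUN, counted as lower in NCI-H596, had means of 155.3, 166.7, 190.4 and 111 CPM from 0 to 12 h. NOTCH1, counted as higher in A549, had 48.0, 66.1, 47.9 and 37.5 CPM. TP63, also counted as higher in A549, had 4 to 38 counts there. GRHL1, counted as higher in NCI-H596, had 8.85, 7.03, 7.51 and 12.3 CPM, and OVOL1, also counted as higher, had 16 to 65 counts. GRHL2, counted as lower in NCI-H596, had 3 to 32 counts. It passed the filter on low counts through its 0 h libraries, where it was highest, so nothing is read from its direction. By the rule, FOSL1, an AP-1 factor, rose most in NCI-H596, with a mean of 48.6 CPM at 0 h and 401 at 3 h (3.04 ± 0.151 on the log2 scale, adjusted p = 5.39e-09), and ELF3, an epithelial ETS factor, fell most, with 34.4 CPM at 0 h and 4.2 at 6 h (-3.04 ± 0.232, adjusted p = 1.86e-07). TP63, which marks squamous basal cells, was called as lower, with a mean of 163 CPM at 0 h and 106 at 12 h, and was picked from the list after its values were seen. In A549, JUNB rose most in the mean over the 3 times, with 57.8 CPM at 0 h and 862.7 at 3 h (3.90 ± 0.129, adjusted p = 3.04e-11), while FOS had the larger change at 3 h, with 9.13 CPM at 0 h and 168.5 at 3 h. ELF3 also fell most in A549 (-1.30 ± 0.176 at 6 h, adjusted p = 7.75e-05). The responses of 14 of the 20 factors differed between the lines, beside 37.6% of all genes.

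The line labels were compared with marker genes. Of 8 squamous markers, NCI-H596 held TP63 (96.5 to 164.1 CPM), DSG3 (52.3 to 138.3) and PKP1 (20.5 to 27.0) beside KRT5, KRT6A and KRT14, but SERPINB13 at 0.464 to 2.22 CPM and DSC3 at 0 or 1 count in each library, whereas A549 had DSC3 at 23.0 to 36.7 CPM and the other 7 at no more than 2.56 CPM. Of 9 markers of simple or glandular cells, EPCAM (0.868 to 2.97 CPM) and CDH1 (2.54 to 12.6) were low in A549. Both were higher in NCI-H596, EPCAM at 24.4 to 37.4 CPM and CDH1 at 80.65 to 124.5 CPM. NKX2-1, NAPSA and SFTPB were at or near 0 in both lines. The summed fibroblast markers were at 11.4 to 19.5 CPM in A549 and 187.2 to 345.9 CPM in NCI-H596, where COL3A1 gave 170.1 to 328 CPM while COL1A2, DCN, LUM and PDGFRB were at no more than 2 counts in any library. Summed leukocyte markers reached 0.506 CPM in A549 and 22.5 CPM in NCI-H596, of which CD14 gave up to 22.2 and PTPRC was at no more than 2 counts, and summed endothelial markers reached 1.77 and 3.22 CPM.

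For the 5 members expressed well in both lines, the genes with the most similar course were named by Pearson correlation of log2 CPM centred within each line, over 16 libraries and 8570 genes, as a description. The libraries share line, time and depth, so these values carry no test. R3HDM4, EMG1 and ZNF593 were most like KRT18 (0.953 to 0.959), PDLIM1, SLC48A1 and NDUFB10 most like KRT19 (0.938 to 0.941), and NECTIN2, RPL3 and PYCR3 most like KRT8 (0.915 to 0.936). CLIP2, RHOF and PLEKHA7 were most like KRT80 (0.917 to 0.924) and TOR1A, GTF2E2 and UBE2M most like KRT7 (0.901 to 0.916). No keratin was among these 15 genes.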

How the data were processed

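The authors trimmed adapters, mapped polyA RNA-seq reads with STAR to hg38 and deposited whole-number counts per gene without normalization. The submitters' processing notes name STAR 2.5.0 and RSEM 1.3.2, so the counts may be rounded estimates that share out reads mapping to several genes. Strand use is not given in the sources used here. The wt MET columns carry a slightly different line name than the titles and were matched by the rest of the name. Totals were 13226488 to 21970052 counts in A549 and 10158590 to 23909304 in NCI-H596.

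Differential expression was computed with edgeR 4.0.16 in R 4.3.3 (filterByExpr with a minimum count of 10 and minimum total of 15, TMM, robust quasi-likelihood fit with 1 coefficient per condition over all 16 libraries), with Benjamini-Hochberg adjustment over 15067 genes and a threshold of 0.05. The additive formula of the study, which used DESeq2, was fitted too. An F test was given the direction of its largest log2 fold change. CPM use TMM-scaled totals, and per-kb values the longest GENCODE transcript.

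The members and lists were chosen with earlier results of these data known. Named from each list and line were the called genes of mean log2 CPM of at least 3 with the largest mean rise and fall, and the 3 genes most like each member. In simulated counts with 200 of 15067 genes changed 2-fold at 3 h in NCI-H596, 85.5% were recovered with 11 false calls, and the test of the difference recovered 68%. The changed genes were drawn only from those above a minimum average level. Most changes called for the members were smaller than 2-fold, so these rates do not describe the members. Over all genes tested, same-numbered replicates did not deviate together (12 pairs, r from -0.159 to 0.035), so no block was used. DESeq2 1.42.0, other filters, scalings, lengths and left-out libraries were tried as alternatives. P-values measure the spread between these libraries. Figures were drawn with matplotlib.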

Additional observations from a re-analysis of the deposited data

Results flagged for a closer look

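The responses of 5 keratins to HGF differed between NCI-H596 and A549 in the F test over 3 times of edgeR's quasi-likelihood fit, and this difference is what singled them out. The adjusted p was 6.37e-05 for KRT80, 0.00545 for KRT18, 0.0104 for KRT8, 0.0171 for KRT7 and 0.046 for KRT17. KRT80 was higher than at 0 h in 6 of 6 A549 libraries with HGF and lower in both 12 h libraries of NCI-H596, and KRT18 was higher in 6 of 6 NCI-H596 libraries with HGF. KRT8 and KRT7 kept the call only while all 3 of A549 0 h replicate 1 and both NCI-H596 0 h replicates were in the fit. KRT17 had at most 16 counts in any A549 library. Groups of 2 are too small for a check of single outlying libraries.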

How the results depend on the processing

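With a library left out in turn, the number of members called ranged from 3 to 5 in A549 and from 7 to 9 in NCI-H596 at any time, from 2 to 5 for the difference between the lines, from 9 to 10 at 0 h and from 3 to 6 in the additive fit. At single times it ranged from 0 to 2, 2 to 3 and 1 to 5 at 3, 6 and 12 h in A549, and from 2 to 7, 4 to 6 and 6 to 7 in NCI-H596. Outside these, log2 fold changes that did not pass with all libraries crossed 0 in NCI-H596 for KRT5 (largest -0.3096 to 0.1927, 3 h -0.0497 to 0.0032, 6 h -0.0224 to 0.1927), KRT14 (largest and 12 h from -0.4141, up to 0.5149 and 0.3715, and 6 h -0.1767 to 0.5149), KRT16 at 6 h (-0.1877 to 0.4404), KRT7 at 12 h (-0.1367 to 0.2408) and KRT8 at 12 h (-0.2252 to 0.3211), and for KRT8 in A549 at 3 h (-0.2558 to 0.0329). The largest change of KRT16 ran from -1.311 to 0.5611, the latter without 12 h replicate 1.

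DESeq2 called 2 members in A549 at 3 h and lost KRT6A in NCI-H596 at 3 h. Without a filter on low counts 3 were called in A549 at 3 h and 8 in the additive fit. With at least 10 counts in every library, which drops KRT5, KRT6A, KRT14, KRT16 and KRT17, the counts were 1 in A549 at 3 h, 5 in NCI-H596 at any time and 3 at each single time, and 5 between the lines at 0 h. A minimum absolute log2 fold change of 1 left 0 in A549 at any time, at 6 h and at 12 h, 2 in NCI-H596 at any time with 1, 2 and 2 at the single times, 1 for the difference and 1 in the additive fit. Each line fitted alone gave 2 in A549 at 3 h and 6 at 12 h, ended the NCI-H596 calls of KRT8 and KRT19 at any time and of KRT6A at 3 h, and moved KRT5 in NCI-H596 to 0.128 (largest) and 0.0257 (3 h). Total counts as library sizes, added after the data were seen, shifted the median gene by up to -0.1363 (NCI-H596 at 6 h), gave 1 call in A549 at 3 h and reversed 5 values that did not pass, KRT14 in NCI-H596 (largest -0.2126, 12 h -0.027), KRT5 at 6 h (-0.0389) and KRT18 in A549 (-0.024 at 3 h, -0.078 at 6 h). The cause of these changes was not tested.

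The replicate number as a block, used only as a check since the numbers share nothing but a label, left every member count within 1.5 times, added KRT16 in NCI-H596 at 3 h (adjusted p = 0.0314) and turned KRT14 at 12 h to -0.0095. With mean transcript lengths, the type II to type I ratio of the members was 3.457 and 2.904 in A549 and 1.224 and 1.743 in NCI-H596 at 0 and 12 h. With canonical lengths, also added later, it was 1.811, 1.527 and 0.9859 (A549 at 0 and 12 h, NCI-H596 at 0 h). Adding pseudogene counts to their parents gave 2.057 in A549 at 12 h and changed no call. Genes near 0 in a line allow no statement on their response there.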
